A study of Mus musculus with 36 samples.

Results

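Chromatin accessibility was profiled by ATAC-seq (a transposase inserts sequencing adaptors where DNA is open) at 7 genes of the TNF receptor family and its ligands in mouse CD4 T cells. They were the receptors Tnfrsf4 (OX40), Tnfrsf9 (4-1BB, CD137), Tnfrsf18 (GITR), Tnfrsf1b (TNFR2) and Cd27, and the ligands Tnfsf8 (CD30 ligand) and Tnfsf11 (RANKL). A peak was assigned to one of these genes when the protein-coding transcription start site (TSS) nearest to its midpoint was theirs (GENCODE M39 on GRCm39) or when it overlapped their gene body. This chose 80 of the 71509 peaks of the series, 75 of them by the nearest TSS and 5 by the gene body alone, of which 4 lie at the 3′ end of Tnfrsf1b, nearer to the TSS of Vps13d, and 1 in Cd27, nearer to that of Tapbpl. Tnfrsf1b had 20 peaks, Tnfsf8 20, Tnfsf11 18, Tnfrsf9 9, Cd27 6, Tnfrsf4 4 and Tnfrsf18 3. All 80 passed the filter on low counts in both mouse lines, and each of the 7 genes had a peak over its TSS, called its promoter peak here. These promoter peaks are 3210 (Tnfsf11) to 9560 bases wide (Tnfsf8), against a median of 750 over all peaks. They take in more than the TSS.

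The study compared 12 groups of 3 libraries, made from splenic CD4 T cells of 2 mouse lines on a mixed 129/Sv and C57BL/6 background. HP1α and HP1γ, encoded by Cbx5 and Cbx3, are heterochromatin proteins that bind methylated histone H3. HP1α KO cells (Hp1a-/-) came from a line in which a floxed allele had been excised by CMV-cre, so that every tissue lacked the protein, and their WT controls were Hp1a+/+ littermates. HP1γ KO cells came from Hp1g flox mice that carried Cd4-cre, which is active in T cells, and the WT littermates carried the floxed allele without the transgene. Donors were sex-matched and 6 to 12 weeks old, and the study's reporting summary states that male mice were used. In each line, WT and KO cells were taken as naive cells or as conventional T cells (Tconv). Tconv were taken 3 weeks after naive cells had been injected, with or without ex vivo expanded WT Treg, into irradiated C57BL/6J or congenic B6 hosts. These hosts received B6 and semi-allogeneic B6D2F1 bone marrow, and the Tconv were sorted by TCR Vβ6, a receptor chain that recognises a superantigen of the semi-allogeneic donor cells. The labels do not say which libraries came from the same animals, so that p-values measure the spread between libraries, part of which may be technical.

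The costimulatory receptors of this family bind trimeric ligands on antigen-presenting cells and recruit TRAF adaptors, which lead to NF-κB and to survival of the activated T cell. CD27 is present on naive T cells, whereas OX40 and 4-1BB appear after antigen stimulation, and GITR and TNFR2 are low on naive cells, rise with activation and are high on Treg. CD30 ligand and RANKL are made by activated T cells themselves and bind CD30 and RANK on other cells.

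The sequences of 6 peaks away from the TSS are given first, because some of the differences described below were measured at them. Each is the central 300 bases of the peak on GRCm39, read from the reference and not from the libraries. Capitals mark matches, on either strand, to the AP-1 motif TGANTCA or the RUNX motif TGTGGTT. Distances are from the main TSS of the gene to the midpoint of the peak, negative upstream. The Tnfsf8 −79.50 kb peak was the Tnfsf8 peak with the smallest p on transfer. The Tnfsf8 −40.50 kb peak was higher with Treg in HP1γ KO cells, and the Tnfsf8 +7.90 kb peak differed with Treg and with HP1γ. The Tnfrsf9 and Tnfsf11 peaks were higher with Treg in WT cells of the HP1α line, and the Tnfrsf1b peak was higher without HP1γ in naive cells and Tconv.
Tnfsf8 −79.50 kb peak, chr4:63858941-63859240, plus strand: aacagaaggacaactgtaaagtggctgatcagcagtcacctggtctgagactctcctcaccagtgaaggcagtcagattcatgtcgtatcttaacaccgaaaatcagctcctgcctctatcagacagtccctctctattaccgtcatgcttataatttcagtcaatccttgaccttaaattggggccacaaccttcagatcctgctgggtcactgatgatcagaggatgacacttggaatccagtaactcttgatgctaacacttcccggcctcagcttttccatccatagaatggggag
Tnfsf8 −40.50 kb peak, chr4:63819941-63820240, plus strand: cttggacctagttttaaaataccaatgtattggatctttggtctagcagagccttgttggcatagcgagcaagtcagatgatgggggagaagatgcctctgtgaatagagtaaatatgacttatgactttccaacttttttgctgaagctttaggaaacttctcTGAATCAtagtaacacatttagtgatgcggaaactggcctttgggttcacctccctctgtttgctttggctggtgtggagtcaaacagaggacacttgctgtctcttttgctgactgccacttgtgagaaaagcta
Tnfsf8 +7.90 kb peak, chr4:63771541-63771840, plus strand: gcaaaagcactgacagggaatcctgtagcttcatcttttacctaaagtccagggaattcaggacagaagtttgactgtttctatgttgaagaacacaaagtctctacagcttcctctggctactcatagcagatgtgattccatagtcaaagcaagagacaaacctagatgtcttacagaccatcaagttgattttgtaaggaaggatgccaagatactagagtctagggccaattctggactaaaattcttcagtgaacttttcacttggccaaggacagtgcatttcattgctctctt
Tnfrsf9 −10.46 kb peak, chr4:151001851-151002150, plus strand: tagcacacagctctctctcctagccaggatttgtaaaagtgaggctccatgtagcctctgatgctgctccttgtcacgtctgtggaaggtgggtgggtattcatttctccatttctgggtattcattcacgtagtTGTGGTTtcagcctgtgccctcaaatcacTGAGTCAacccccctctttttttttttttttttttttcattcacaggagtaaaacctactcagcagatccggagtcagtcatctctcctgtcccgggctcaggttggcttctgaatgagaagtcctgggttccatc
Tnfsf11 −22.33 kb peak, chr14:78567671-78567970, plus strand: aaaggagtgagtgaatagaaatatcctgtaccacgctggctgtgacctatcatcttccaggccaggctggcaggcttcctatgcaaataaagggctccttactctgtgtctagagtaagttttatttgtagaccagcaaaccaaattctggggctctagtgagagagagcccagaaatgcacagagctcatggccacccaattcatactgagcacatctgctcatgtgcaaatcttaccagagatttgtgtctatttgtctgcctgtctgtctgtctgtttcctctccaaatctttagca
Tnfrsf1b −15.39 kb peak, chr4:144988681-144988980, plus strand: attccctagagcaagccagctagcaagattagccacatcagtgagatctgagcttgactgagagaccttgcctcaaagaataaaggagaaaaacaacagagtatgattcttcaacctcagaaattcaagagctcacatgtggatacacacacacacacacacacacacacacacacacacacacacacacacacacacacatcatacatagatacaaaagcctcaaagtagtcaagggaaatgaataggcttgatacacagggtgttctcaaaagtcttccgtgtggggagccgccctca
The Tnfrsf9 window held 1 match to each motif and the Tnfsf8 −40.50 kb window 1 match to AP-1, whereas the other 4 held neither. None of the 6 windows overlapped an exon.

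Libraries held 1.49 to 96.8 M counts in peaks (M, the number of counts to which CPM is scaled), with a median of 54.8 M. The WT libraries with Treg of the HP1α line were the shallowest, at 1.49 to 12.7 M. The study left out 3 HP1α-line libraries with Treg, 1 WT and 2 KO, for low signal in peaks, and the same 15 libraries were kept here, which leaves 1 KO library with Treg in that line. Which part of Cbx5 (HP1α) and Cbx3 (HP1γ) was deleted is not given in the sources used here, so that the peaks over their TSS were not used as a check of the labels. The peak at Cd4, the promoter used in Cd4-cre, stood at 9.0 to 9.51 log2 CPM in the 9 HP1γ KO libraries and at 5.81 to 6.89 in the other 27, as the labels give it. All 6 genes of a T cell marker list had a peak within 1 kb of the TSS. The summed CPM of 4 naive T cell genes was 910 to 1213 in naive libraries and 359 to 641 after transfer. Of 2 CD8 T cell genes, Cd8b1 alone had such a peak, at 29.5 to 35.9 CPM in naive libraries and 2.71 to 10.6 after transfer, left-out libraries included. Of 3 NK cell genes, Klrk1 alone had one, at 0.15 to 0.58 CPM in naive libraries, 2.27 to 16.5 in Tconv and 0.04 to 15.1 with Treg. In HP1γ-line Tconv it was 6.93 to 13.3 in WT and 2.27 to 3.82 in KO libraries, and with Treg 3.05 to 15.1 in WT and 0.48 to 2.48 in KO libraries. The 2 Treg genes with such a peak summed to 69.5 to 80.8 CPM in WT and 89.3 to 106 in KO naive libraries of the HP1γ line, to 63.8 to 77.1 and 75.0 to 82.3 in Tconv, and to 51.2 to 80.9 and 89.5 to 92.8 with Treg. In the HP1α line they summed to 48.4 to 104 over all libraries. Per the methods, ATAC-seq used donor-specific CD4+ T cells after FACS, and for RNA-seq such Tconv were gated as CD4+ Thy1.1- H-2Kd- and TCR Vβ6+, which leaves out CD8 T cells, NK cells and the injected Treg, which carry Thy1.1. The part of other cells in the changes with transfer, Treg and genotype was not tested. In bulk samples, fewer cells with an open site and less opening per cell cannot be told apart.

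At the promoters, OX40 and 4-1BB were more accessible in Tconv than in naive cells in both lines and genotypes, Cd27 was less accessible by a smaller amount, and no promoter of the 2 ligands passed the fold threshold. Tnfrsf4 (chr4:156098293-156101069, plus strand) encodes OX40, a receptor that prolongs the survival of activated CD4 T cells. Its promoter peak stood at 4.28, 4.12 and 3.97 log2 CPM in the WT naive libraries of the HP1α line and 6.22, 6.19 and 5.74 in its WT Tconv, and the KO groups averaged 4.23 ± 0.12 and 6.07 ± 0.18 (SD, n = 3). For the HP1γ line the same groups gave 4.16, 4.03 and 4.08 in WT naive cells and 6.19, 6.59 and 6.37 in WT Tconv, with KO means of 4.17 ± 0.09 and 6.22 ± 0.19. Tconv from grafts with Treg stood at 5.64 ± 0.16 in HP1α-line WT (n = 2), 5.83 in the 1 kept HP1α KO library, 6.10 ± 0.22 in HP1γ-line WT and 6.42 ± 0.12 in HP1γ KO. All 8 groups after transfer lay above all 4 naive groups, without overlap of libraries, while the 4 naive groups overlapped each other. The log2 fold change from naive cells to Tconv in WT cells was 2.0 ± 0.16 (SE, edgeR adjusted p = 3.72e-08) in the HP1α line and 2.37 ± 0.13 (SE, edgeR adjusted p = 9.54e-11) in the HP1γ line. Called here means that the adjusted p of a peak was below 0.05 and its log2 fold change above 1 in size, and both values passed.

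Tnfrsf9 (chr4:150999019-151030559, plus strand) encodes 4-1BB, which is induced on activated T cells. In log2 CPM, its promoter peak gave 4.83, 5.04 and 5.05 in the WT naive libraries of the HP1α line and 6.58, 6.30 and 6.40 in its WT Tconv, and the KO groups averaged 5.10 ± 0.09 and 6.56 ± 0.30. HP1γ-line libraries gave, in the same order, 5.04, 5.01 and 5.01 in WT naive cells and 6.92, 7.07 and 6.96 in WT Tconv, with KO means of 4.88 ± 0.11 and 6.80 ± 0.15. Where Treg had been added, the peak stood at 6.19 ± 0.51 in HP1α-line WT (n = 2), 6.45 in the 1 kept HP1α KO library, 6.63 ± 0.37 in HP1γ-line WT and 6.89 ± 0.18 in HP1γ KO. Again the 8 groups after transfer lay above the 4 naive groups with no overlap. The change in WT cells was 1.51 ± 0.17 (SE, edgeR adjusted p = 1.63e-06) in the HP1α line and 2.03 ± 0.14 (SE, edgeR adjusted p = 1.24e-09) in the HP1γ line.

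Tnfrsf18 (chr4:156110621-156113352, plus strand) lies downstream of Tnfrsf4 on the same strand and encodes GITR. The promoter peak stood at 4.65 ± 0.04 log2 CPM in HP1α-line WT naive cells (mean ± SD over 3 libraries), 4.61 ± 0.10 in KO naive cells, 5.0 ± 0.29 in WT Tconv and 5.22 ± 0.16 in KO Tconv. The HP1γ line held 4.54 ± 0.11, 4.36 ± 0.12, 5.54 ± 0.33 and 5.23 ± 0.43. The groups with Treg gave 4.69 ± 0.45 in HP1α-line WT (n = 2), 4.77 in the 1 kept HP1α KO library, 5.23 ± 0.31 in HP1γ-line WT and 5.29 ± 0.18 in HP1γ KO. Neighbours in the order of the 12 groups overlapped throughout. In WT cells the change on transfer was called in the HP1γ line, at 1.09 ± 0.20 (SE, edgeR adjusted p = 9.03e-05), and not in the HP1α line, at 0.43 ± 0.17 (SE, edgeR adjusted p = 0.0395). The called value was 0.98 without WT naive replicate 1 and 0.97 without WT Tconv replicate 2, short of the fold. Whether the lines differ was not tested.

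Tnfrsf1b (chr4:144938938-144973477, minus strand) encodes TNFR2, the TNF receptor without a death domain. Its promoter peak had a level of 6.85 ± 0.45 log2 CPM in HP1α-line WT naive cells, 6.76 ± 0.27 in KO naive cells, 6.99 ± 0.17 in WT Tconv and 6.98 ± 0.18 in KO Tconv. HP1γ-line groups stood at 6.91 ± 0.05, 6.90 ± 0.03, 7.64 ± 0.33 and 7.44 ± 0.33. Its promoter peak was not called between naive cells and Tconv of either line or genotype, although in the HP1γ line the adjusted p passed for WT, with a log2 fold change of 0.82 ± 0.14 (SE, edgeR adjusted p = 3.94e-05). After transfer with Treg, values were 7.08 ± 0.55 in HP1α-line WT (n = 2), 7.13 in the 1 kept HP1α KO library, 7.45 ± 0.09 in HP1γ-line WT and 7.44 ± 0.08 in HP1γ KO.

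Cd27 (chr6:125209585-125213988, minus strand) encodes the costimulator of naive and central memory T cells. For its promoter peak, values were 5.81, 5.89 and 5.95 log2 CPM in the WT naive libraries of the HP1α line and 4.76, 4.89 and 4.55 in its WT Tconv, and the KO groups averaged 5.91 ± 0.13 and 5.05 ± 0.18. In that order, the HP1γ-line groups gave 5.49, 5.58 and 5.64 in WT naive cells and 4.69, 4.96 and 4.97 in WT Tconv, with KO means of 5.48 ± 0.18 and 5.08 ± 0.22. With Treg the groups held 5.04 ± 0.68 in HP1α-line WT (n = 2), 5.25 in the 1 kept HP1α KO library, 4.81 ± 0.24 in HP1γ-line WT and 5.38 ± 0.26 in HP1γ KO. The 4 naive groups headed the order, and the HP1γ-line naive groups overlapped HP1γ KO Tconv with Treg and HP1α-line WT Tconv with Treg, where 1 kept library stood at 5.53. The fall in WT cells was called in the HP1α line, at −1.08 ± 0.18 (SE, edgeR adjusted p = 9.32e-05), and passed the adjusted p but not the fold in the HP1γ line, at −0.63 ± 0.15 (SE, edgeR adjusted p = 0.00115). In KO cells it was −0.81 ± 0.18 (SE, edgeR adjusted p = 0.00105) in the HP1α line and −0.36 ± 0.15 (SE, edgeR adjusted p = 0.0447) in the HP1γ line. With library size alone, loess offsets or log2 depth as a covariate, the HP1α-line value was −0.83, −0.75 and −0.88, short of the fold threshold. This peak also overlaps Vamp1.

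Tnfsf8 (chr4:63749542-63779592, minus strand) encodes CD30 ligand. At its promoter, the peak held 5.91 ± 0.03 log2 CPM in HP1α-line WT naive cells, 5.94 ± 0.04 in KO naive cells, 6.22 ± 0.34 in WT Tconv and 6.42 ± 0.23 in KO Tconv. The HP1γ-line groups held, in turn, 5.83 ± 0.02, 5.70 ± 0.11, 6.14 ± 0.04 and 6.32 ± 0.27. Grafts with Treg gave 6.76 ± 0.26 in HP1α-line WT (n = 2), 6.37 in the 1 kept HP1α KO library, 6.46 ± 0.12 in HP1γ-line WT and 6.74 ± 0.14 in HP1γ KO. The means of the 8 groups after transfer lay above those of the 4 naive groups, but 1 WT Tconv library of the HP1α line lay within the naive range, at 5.85. No transfer change passed the fold threshold, at 0.40 ± 0.16, 0.53 ± 0.16, 0.37 ± 0.11 and 0.67 ± 0.11 (SE) in HP1α-line WT, HP1α KO, HP1γ-line WT and HP1γ KO cells, with edgeR adjusted p of 0.048, 0.0121, 0.00699 and 4.86e-05. Tnfsf11 (chr14:78514885-78545490, minus strand) encodes RANKL, a ligand known from osteoclast formation and lymph node development. The promoter peak of this ligand held 5.37 ± 0.10 log2 CPM in HP1α-line WT naive cells, 5.39 ± 0.03 in KO naive cells, 5.40 ± 0.23 in WT Tconv and 5.61 ± 0.27 in KO Tconv. In turn, HP1γ-line groups gave 5.23 ± 0.01, 5.34 ± 0.08, 5.41 ± 0.01 and 5.26 ± 0.06. Among the groups with Treg, values were 5.23 ± 0.03 in HP1α-line WT (n = 2), 5.51 in the 1 kept HP1α KO library, 5.39 ± 0.17 in HP1γ-line WT and 5.44 ± 0.24 in HP1γ KO. Neighbouring groups in the order of levels overlapped, and its WT log2 fold change was 0.11 ± 0.15 (SE, edgeR adjusted p = 0.572) in the HP1α line and 0.24 ± 0.12 (SE, edgeR adjusted p = 0.0773) in the HP1γ line.

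Levels between genes were compared per kb of peak. In WT naive cells of the HP1α line, the promoter peaks of Cd27 (3.71 log2 CPM per kb), Tnfsf11 (3.68) and Tnfrsf1b (3.61) were highest and that of Tnfrsf4 (1.59) was lowest. In WT Tconv of that line Tnfrsf9 was highest (4.11) and Cd27 lowest (2.56).

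**Figure D1:**
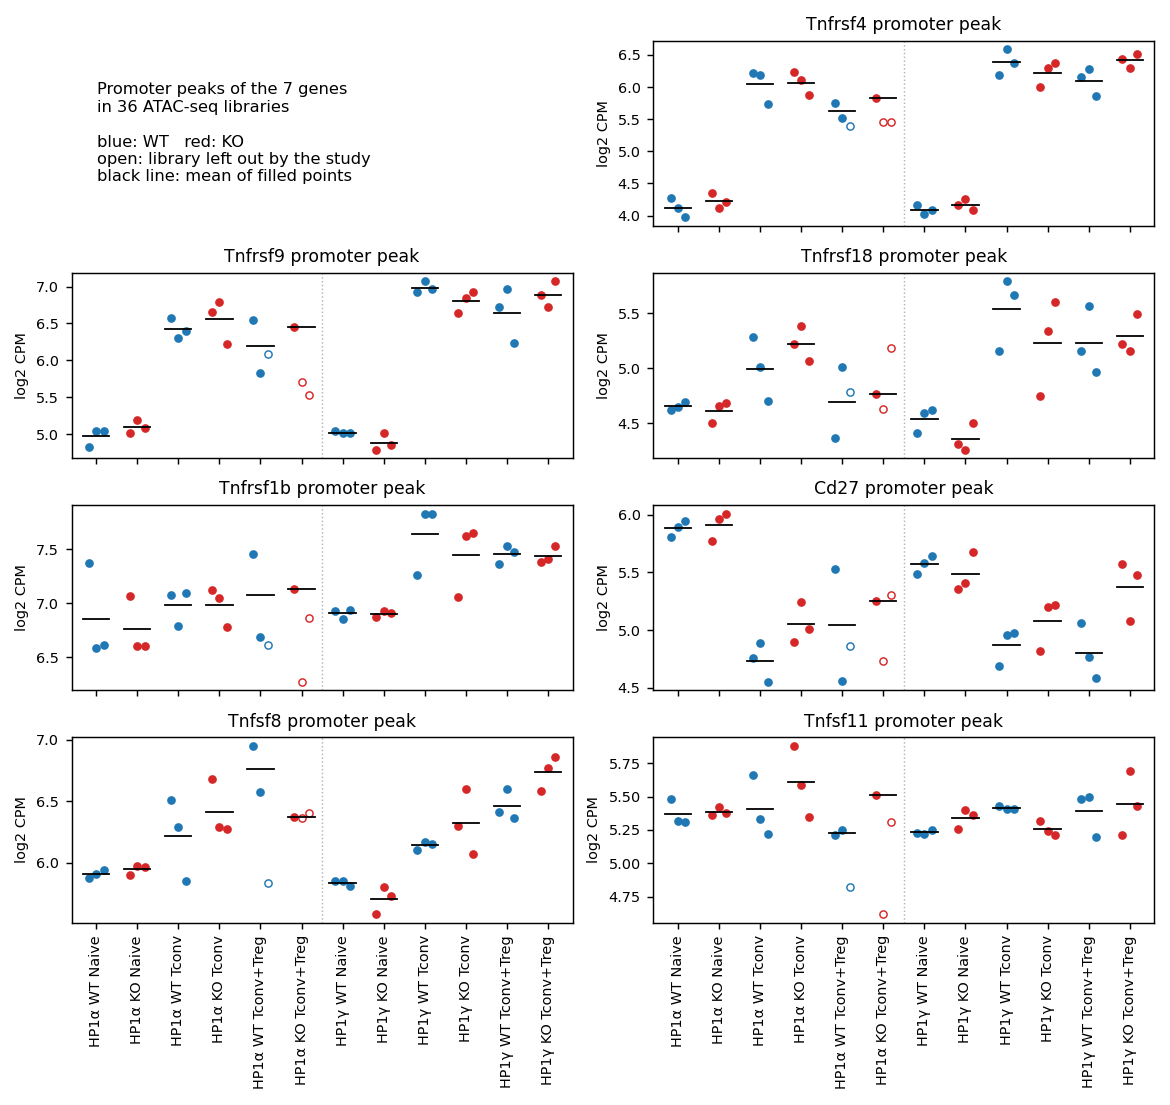
Accessibility of the promoter peak of each of the 7 genes (log2 CPM, y axis) by group, with 1 point per library (open where the study left it out) and a line for the mean of the others. Tnfrsf4 and Tnfrsf9 lie higher in every group after transfer than in naive cells, Cd27 lies lower in Tconv, and Tnfsf11 stays between 5.23 and 5.61 in the group means.

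On transfer, more peaks of these genes were called higher than lower. Of the 80 peaks, 39 were called higher and 9 lower in WT Tconv than in WT naive cells of the HP1α line, where 39.1% of all peaks were called either way (25.6% higher). Of the same peaks, 40 and 7 were called in HP1α KO cells (39.5% of all peaks, 23.2% higher), 45 and 9 in HP1γ-line WT cells (47.1%, 25.2% higher) and 43 and 9 in HP1γ KO cells (42.3%, 22.4% higher). The median log2 fold change of the 80 was 1.02, 1.30, 1.30 and 1.27, whereas over all peaks it was −0.01, −0.04, 0.08 and 0.06. In all 4 comparisons together, 35 of the 80 peaks (43.8%) were called higher, against 17.9% of all peaks, and 7 (8.75%) lower, against 11.1%. Most of the 35 lay outside the gene body and over 10 kb from the main TSS, tied to their gene by the nearest TSS alone. The excess is thus largely one of distal peaks, whose target genes are not known from these data. Whether peaks in the gene body or within 10 kb exceed all peaks so placed was not tested. Of the 9 peaks that cover a TSS, 2 were among the 35, and of the 71 others, 33 were. Over all peaks, 5.59% of the 12506 that cover a TSS of their nearest gene and 20.5% of the 59003 others were called higher in all 4, so that fewer calls at a TSS are not particular to these genes.

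The 2 ligand genes held 23 of these 35 higher peaks. Peaks named below beside the 1 with the smallest p per gene and comparison, and beside the promoter, were chosen after their values were seen. Tnfsf8 had 14 of its 20 peaks higher in all 4 comparisons and 2 lower, and Tnfsf11 had 9 of 18 higher and 2 lower. Among the receptors, Tnfrsf1b had 6 of 20 higher and 1 lower, Tnfrsf4 3 of 4 higher and 1 lower, Tnfrsf9 3 of 9 higher, Cd27 1 of 6 lower, and Tnfrsf18 none in either direction.

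Upstream of Tnfrsf4, the −4.65 kb peak (chr4:156092061-156095220), which also overlaps the neighbouring gene Sdf4, rose further than the promoter. In the HP1γ line its libraries stood at 0.86, 0.69 and 0.24 log2 CPM in WT naive cells and 5.31, 5.70 and 5.17 in WT Tconv. In the HP1α line the values were 0.61, 0.91 and 1.11 in WT naive cells and 5.04, 5.20 and 4.45 in WT Tconv. All Tconv libraries lay above all naive ones, with log2 fold changes of 4.13 ± 0.21, 4.07 ± 0.21, 4.90 ± 0.32 and 3.95 ± 0.31 (SE) in HP1α-line WT, HP1α KO, HP1γ-line WT and HP1γ KO cells and edgeR adjusted p of 5.96e-10, 6.1e-10, 7.53e-10 and 1.26e-08. The peak farther upstream at −9.48 kb, also in Sdf4, fell in the same 4 comparisons, by 1.30, 1.22, 1.34 and 1.04 on the log2 scale.

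In Tnfrsf9, the intronic −10.46 kb peak (chr4:151001391-151002610), whose window carries an AP-1 and a RUNX match, stood at −0.38, −0.30 and −0.49 log2 CPM in WT naive cells and 3.45, 3.72 and 3.63 in WT Tconv of the HP1γ line. HP1α-line WT libraries stood at −0.32, −0.33 and 0.07 in naive cells and 2.87, 2.97 and 3.0 in Tconv. The groups did not overlap in either line, and the log2 fold changes in the 4 comparisons were 3.23 ± 0.24, 4.16 ± 0.24, 4.13 ± 0.26 and 3.77 ± 0.26 (SE), with edgeR adjusted p of 1.18e-08, 1.4e-09, 4.68e-10 and 2.91e-09. Downstream, the intronic +12.08 kb peak was called lower in WT cells of both lines, with −1.08, −0.98, −1.12 and −0.44 in the 4 comparisons (log2 fold changes).

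For Tnfrsf1b, 2 peaks far upstream that lie inside Tnfrsf8 (CD30), at −28.31 and −30.89 kb, rose most. The −28.31 kb peak, whose window has a RUNX match, gave 3.98, 3.81, 5.07 and 4.47 and the −30.89 kb peak 3.75, 3.63, 4.54 and 3.03 in the 4 comparisons. In WT cells of the HP1γ line the −28.31 kb libraries stood at 0.37, 0.01 and 0.14 log2 CPM in WT naive cells and 4.65, 5.26 and 5.37 in WT Tconv. By the nearest TSS both belong to TNFR2, yet they overlap the gene of CD30, the receptor of CD30 ligand, and the target gene is not known from these data. Inside Tnfrsf1b itself, the +22.05 kb peak over a coding exon fell by 1.85, 2.27, 2.34 and 2.39.

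For Cd27, the −23.19 kb peak fell in all 4 comparisons, with log2 fold changes of −1.75, −1.87, −2.25 and −1.25. Its HP1γ-line libraries stood at 2.50, 2.52 and 2.52 log2 CPM in WT naive cells and 0.29, −0.07 and 0.45 in WT Tconv. The other Cd27 peaks, which overlap Vamp1, changed by −0.97 to 0.21 upstream of the promoter and none of these was called. For Tnfrsf18, the +6.66 kb peak downstream of the gene, which overlaps Ttll10, was called higher in HP1γ-line WT and KO cells, at 1.53 ± 0.13 (SE, edgeR adjusted p = 1.24e-08) and 1.28 ± 0.13 (SE, edgeR adjusted p = 1.77e-07).

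Tnfsf8 had a block of 8 peaks between −79.50 and −38.21 kb, all called higher in all 4 comparisons. The −79.50 kb peak (chr4:63855861-63862320), which had the smallest p of the gene in each line, stood at 1.52, 1.34 and 1.50 log2 CPM in WT naive cells and 5.83, 5.79 and 5.64 in WT Tconv of the HP1α line. In the HP1γ line it stood at 1.85, 1.39 and 1.0 and 5.55, 6.08 and 5.64. Groups were far apart, with log2 fold changes of 4.38 ± 0.24, 4.47 ± 0.24, 4.41 ± 0.23 and 4.21 ± 0.23 (SE) and edgeR adjusted p of 9.8e-10, 8.53e-10, 7.1e-11 and 2.55e-10, beside 0.40, 0.53, 0.37 and 0.67 at the promoter. That promoter peak is 9560 bases wide, and a change at the TSS alone was not tested. The −74.57 kb peak gave 4.72, 5.04, 5.07 and 4.92. At −70.42 kb the 3 HP1γ-line WT naive libraries held 0, 0 and 1 counts, at or under the floor of 3 counts, so no fold is given there. Within the gene, the intronic peaks at +7.90, +19.46 and +23.22 kb rose by 1.31, 1.32, 1.05 and 1.75, by 1.44, 1.50, 1.67 and 1.56 and by 2.92, 2.40, 2.77 and 2.28, while the intronic +11.96 kb peak between them fell by 1.46, 1.36, 1.84 and 1.40.

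At Tnfsf11, whose promoter was called in none of the 4 comparisons, distal peaks were called in both directions. The −12.79 kb peak (chr14:78556701-78559850) stood at 1.50, 1.15 and 1.20 log2 CPM in WT naive cells and 4.33, 4.59 and 4.35 in WT Tconv of the HP1γ line and at 1.26, 1.42 and 1.32 and 4.68, 4.45 and 4.65 in those of the HP1α line. The log2 fold changes were 3.33 ± 0.20, 3.42 ± 0.20, 3.23 ± 0.21 and 2.52 ± 0.21 (SE), with edgeR adjusted p of 1.63e-09, 1.37e-09, 8.09e-10 and 2.44e-08 and no overlap of libraries. Farther upstream, the −22.33 kb peak gave 4.23, 4.48, 4.89 and 2.62 and the −43.79 kb peak 5.04, 5.01, 4.66 and 3.70. At −112.63 kb, the outermost peak assigned to the gene, the values were 4.32, 4.57, 4.66 and 3.17. Between these, the −76.47 and −74.26 kb peaks fell, by 1.55, 1.11, 1.44 and 1.44 and by 1.47, 1.47, 1.88 and 1.73.

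**Figure D2:**
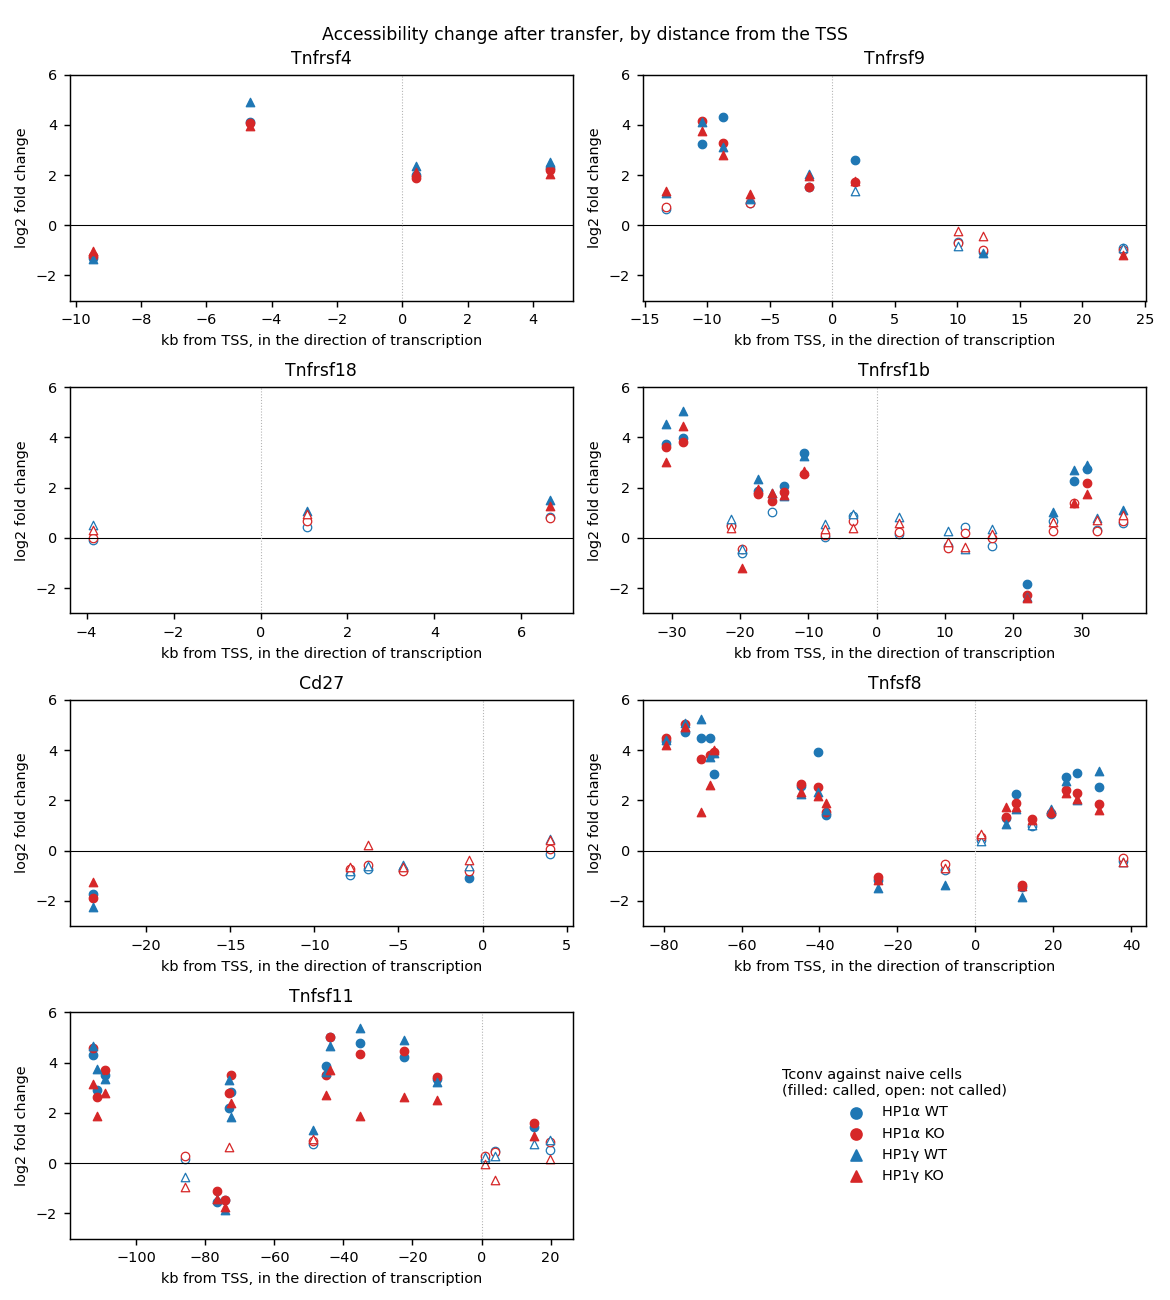
Log2 fold change from naive cells to Tconv (y axis) of each of the 80 peaks against the distance of its midpoint from the main TSS of its gene (kb, x axis), by gene and comparison, filled where called. The promoter peak of Tnfsf8 changed by 0.37 to 0.67 and that of Tnfsf11 by −0.04 to 0.28, and distal peaks of both genes reach values over 4.

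Loss of HP1α changed none of the 80 peaks past the threshold. In naive cells, 0 were called by edgeR, where 0.0014% of all peaks were, 1 had an unadjusted p under 0.05 (0.646% of all), and DESeq2 called 0. In Tconv, 0 were called (0.0014% of all peaks), 1 had an unadjusted p under 0.05 (3.08% of all) and DESeq2 called 0. With Treg, 0 were called (0.14% of all peaks), 14 had an unadjusted p under 0.05, where 17.4% of all peaks did, and DESeq2 called 2, both lower. The median log2 fold change of the 80 was 0.02 without transfer, 0.07 in Tconv and −0.08 with Treg, against 0.0, −0.05 and −0.10 over all peaks.

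The promoter peak of Tnfrsf4 differed between KO and WT by 0.10 ± 0.16 (SE, edgeR adjusted p = 1) in naive cells and by −0.01 ± 0.16 (SE, edgeR adjusted p = 1) in Tconv. For Tnfrsf9 the differences were 0.12 ± 0.17 (SE, edgeR adjusted p = 1) and 0.13 ± 0.17 (SE, edgeR adjusted p = 0.995). For Cd27 they were 0.03 ± 0.18 (SE, edgeR adjusted p = 1) and 0.30 ± 0.18 (SE, edgeR adjusted p = 0.995). A miss of the threshold does not show that the genotypes were alike. Of peaks given a log2 change of 2 in simulated counts, the fit called 31.5% with Treg and 80% in naive cells of this line. It called 91% with Treg in the HP1γ line, so the lines differ in what could be found with Treg.

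The 2 peaks that DESeq2 called lower with Treg were the intronic Tnfsf8 +7.90 kb peak and the Tnfsf11 −22.33 kb peak. At Tnfsf8 +7.90 kb the kept WT libraries stood at 5.18 and 5.08 and the kept KO library at 3.92, with the left-out libraries at 4.17 for WT and 4.35 and 3.73 for KO. The KO library lay below both kept WT libraries, and edgeR gave a log2 fold change of −1.21 ± 0.33 (SE, adjusted p = 0.0892). At Tnfsf11 −22.33 kb the kept WT libraries stood at 3.11 and 4.68 and the KO library at 1.60, with edgeR giving −2.39 ± 0.60 (SE, adjusted p = 0.0743). At this Tnfsf11 peak the left-out libraries held 23 counts of 3.20 M for WT and 63 of 7.12 M and 55 of 5.73 M for KO. The kept KO library held 159 of 50.7 M, a lower share, before TMM scaling, than either left-out KO library. Over the 20 Tnfsf8 peaks the median difference with Treg was −0.62, and 3 of 20 were above 0. These values rest on 1 KO library of 50.7 M counts, and the single library was assumed to vary like the other groups.

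Between HP1γ KO and WT, the peaks that passed both the adjusted p and the fold threshold were peaks of Tnfrsf1b and Tnfsf8 outside the promoters, all higher in KO, and peaks that passed the adjusted p alone are given further on. In naive cells, 3 of the 80 peaks were called higher and 0 lower, where 0.583% of all peaks were called (0.579% higher). In Tconv 1 was called higher (1.81% of all peaks, 1.24% higher), and with Treg 1 was called higher (10.7% of all, 4.8% higher). The median log2 fold change of the 80 was 0.08, −0.08 and 0.15, against 0.03, 0.03 and −0.03 over all peaks.

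Upstream of Tnfrsf1b, the −15.39 kb peak (chr4:144988541-144989120) was called in naive cells and in Tconv. In naive cells its WT libraries stood at −0.90, −0.53 and −1.29 log2 CPM and its KO libraries at 0.24, 0.06 and 0.34, a log2 fold change of 1.19 ± 0.25 (SE, edgeR adjusted p = 0.0381). These are low levels, from 30 to 90 counts a library. In Tconv the WT libraries stood at 0.43, 0.96 and 0.93 and the KO libraries at 1.62, 2.02 and 2.09, a change of 1.16 ± 0.23 (SE, edgeR adjusted p = 0.0121). With Treg, WT stood at 1.49, 1.16 and 1.56 and KO at 2.45, 2.09 and 2.16, and the change of 0.85 ± 0.23 (SE, edgeR adjusted p = 0.0158) passed the adjusted p and not the fold. KO libraries lay above WT libraries in all 3 conditions. The Tconv call ended in a fit of only these 2 groups, at an adjusted p of 0.0720, and without WT Tconv replicate 1 (0.0637) or 2 (0.0537). HP1α KO minus WT was −0.07 ± 0.46 (SE, edgeR adjusted p = 1) in naive cells and 0.37 ± 0.46 (SE, edgeR adjusted p = 0.995) in Tconv.

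The −30.89 kb peak, inside Tnfrsf8, was called in naive cells, with WT libraries at 0.68, 0.48 and 0.49 and KO libraries at 1.72, 1.87 and 0.97, a change of 1.04 ± 0.22 (SE, edgeR adjusted p = 0.0381). After transfer the order was not kept, with WT at 4.89, 5.17 and 4.91 and KO at 4.31, 4.59 and 4.63 in Tconv. The interaction of genotype and transfer was −1.51 ± 0.29 (SE, edgeR adjusted p = 0.067), which misses the threshold over all peaks. Upstream of Tnfsf8, the −70.42 kb peak was called higher in KO naive cells from 0, 0 and 1 counts in WT and 5, 13 and 8 in KO libraries. Naive calls were lost with log2 depth as a covariate, under which 0 peaks were called, and the KO naive libraries held 32.4 to 82.4 M counts against 70.5 to 90.3 M in WT. With a constant dispersion 0 were called as well. Without KO naive replicate 3, 7 were called, and without any other 1 of the 6 naive libraries 0 were.

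With Treg, the intronic Tnfsf8 +7.90 kb peak (chr4:63770341-63773040) was the 1 peak called. WT libraries stood at 3.59, 3.39 and 3.57 log2 CPM and KO libraries at 4.41, 4.59 and 5.05, all above WT, a change of 1.20 ± 0.20 (SE, edgeR adjusted p = 0.00159). This call was kept under all 15 alternatives, with log2 fold changes of 1.0 to 1.35. Without Treg, WT Tconv stood at 3.12, 3.47 and 3.21 and KO Tconv at 3.47, 4.26 and 3.69, a change of 0.58 ± 0.20 (SE, edgeR adjusted p = 0.128).

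Counting any fold, 10 peaks passed an adjusted p of 0.05 between HP1γ KO and WT with Treg, 9 higher and 1 lower (against 18.7% of all peaks). Of Tnfrsf9, 4 of 9 peaks were among them, all higher, at −13.33 kb (0.49 ± 0.10, edgeR adjusted p = 0.00389), −10.46 kb (0.91 ± 0.22, edgeR adjusted p = 0.0112), +10.03 kb (0.81 ± 0.20, edgeR adjusted p = 0.0113) and +12.08 kb (0.82 ± 0.15, edgeR adjusted p = 0.00241). The Cd27 promoter was another, with WT libraries at 5.06, 4.77 and 4.58 and KO libraries at 5.57, 5.08 and 5.48, a change of 0.58 ± 0.15 (SE, edgeR adjusted p = 0.0142). In Tconv, 1 peak passed the adjusted p without the fold, Cd27 −23.19 kb, with WT libraries at 0.29, −0.07 and 0.45 and KO libraries at 0.88, 1.26 and 1.26, a change of 0.93 ± 0.23 (SE, edgeR adjusted p = 0.0378) with no overlap. With Treg, the 1 lower peak was Tnfsf8 −7.71 kb, named like those of Tnfrsf9 after its values were seen, at −0.75 ± 0.20 (SE, edgeR adjusted p = 0.0154). The Tnfrsf9 −13.33 kb peak covers a TSS of Tnfrsf9 upstream of the main one, and it also overlaps Park7.

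**Figure D3:**
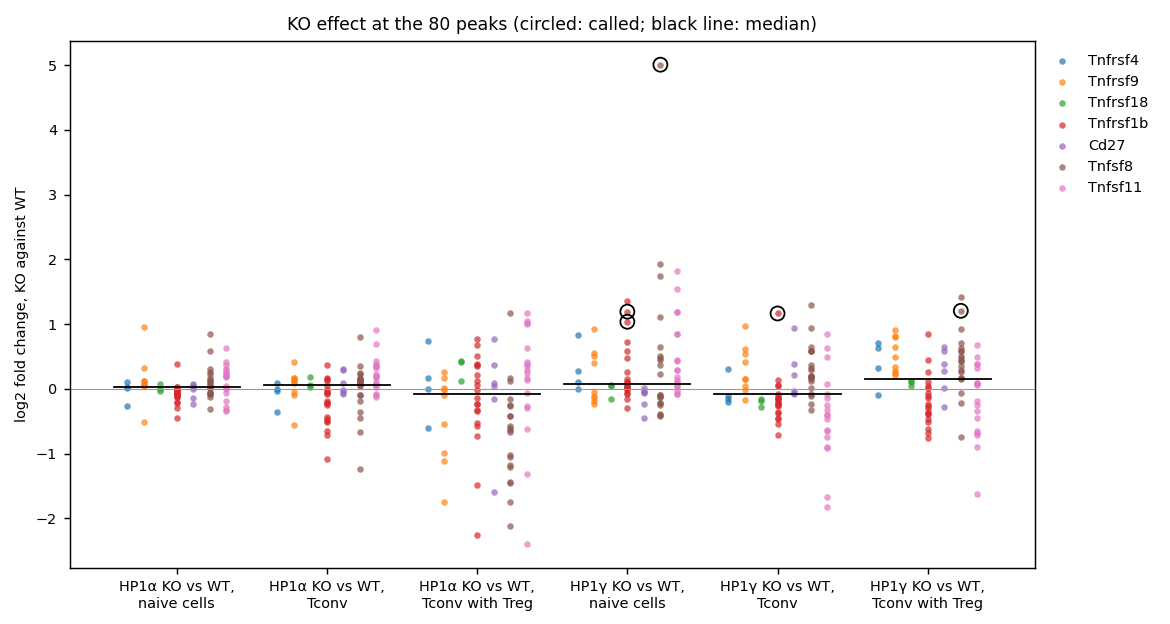
Log2 fold change of KO over WT (y axis) of each of the 80 peaks in naive cells, Tconv and Tconv with Treg of both lines, coloured by gene, with a line for the median. Called peaks are circled, none in the HP1α line and 3, 1 and 1 in the 3 conditions of the HP1γ line.

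Peaks that open on transfer were also described in HP1γ-line naive cells, by sorting them on the HP1α-line libraries, which the HP1γ contrast does not use. Of the 80 peaks, 38 were called higher in Tconv than in naive cells in both HP1α-line genotypes. In naive cells, HP1γ KO minus WT had a median of 0.49 over these 38, of which 33 were above 0, where all 15590 peaks sorted in the same way had a median of 0.64 and 84.6% above 0. The 7 peaks called lower had a median of −0.08 with 1 above 0, and the 35 others −0.02 with 17 above 0. In Tconv the median of the 38 was 0.09, with 20 above 0, where all such peaks had 0.04 and 52.4% above 0. With Treg it was 0.34, with 28 above 0, against 0.17 and 57.7% above 0. With log2 depth as a covariate the naive median was 0.34, with 31 of 38 above 0. In naive cells the median of the 38 lay below that of all such peaks, and in Tconv, where loess offsets turned it to −0.01, and with Treg above it.

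**Figure D4:**
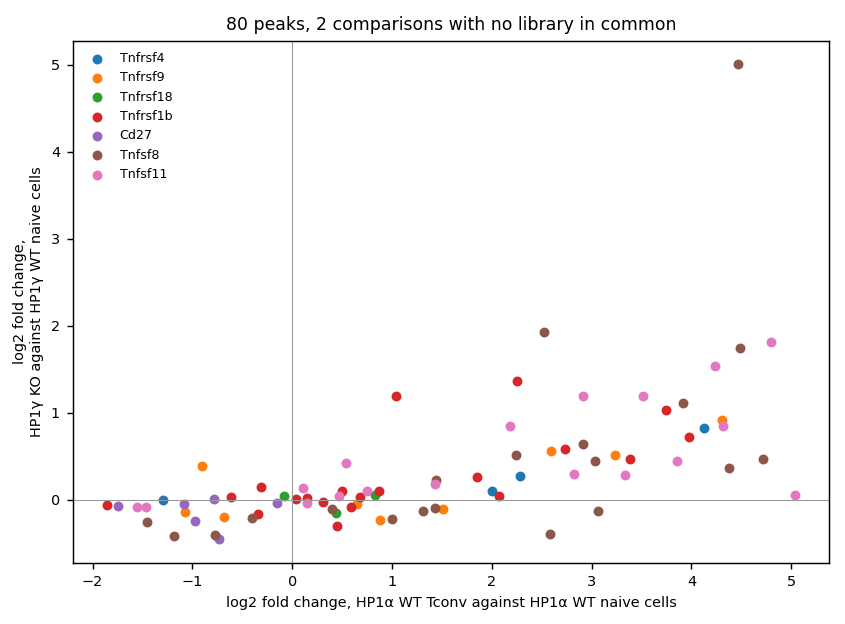
Log2 fold change of HP1γ KO over WT in naive cells (y axis) against that of Tconv over naive cells in HP1α-line WT cells (x axis), with 1 point for each of the 80 peaks, coloured by gene. The 2 axes share no library, and most points on the right of the plot lie above 0, with a median of 0.49 for the 38 peaks higher in both HP1α-line genotypes.

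With Treg in the graft, the peaks that passed both thresholds were of Tnfsf8, Tnfrsf9 and Tnfsf11, all higher. At an adjusted p of 0.05 and any fold, 1 peak fell in WT cells of the HP1α line, Tnfrsf18 +6.66 kb, from 7.02, 6.78 and 6.77 log2 CPM to 6.34 and 6.02, with the left-out library at 5.75, a change of −0.65 ± 0.16 (SE, edgeR adjusted p = 0.0146). In HP1γ KO cells the 1 that fell was Tnfrsf1b −10.60 kb, at −0.76 ± 0.22 (SE, edgeR adjusted p = 0.0439). In WT cells of the HP1α line, 3 of the 80 peaks were called higher with Treg and 0 lower, where 7.5% of all peaks were called (3.95% higher). In HP1γ KO cells 2 were higher and 0 lower (4.69% of all peaks, 3.08% higher). In WT cells of the HP1γ line edgeR called 0 (0.959% of all peaks), with 23 at an unadjusted p under 0.05 (22.4% of all) and 0 by DESeq2. In HP1α KO cells edgeR called 0 (0.0% of all peaks), with 3 at an unadjusted p under 0.05 (3.4% of all) and 0 by DESeq2.

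The Tnfsf8 +7.90 kb peak rose in WT cells of the HP1α line from 3.70, 3.86 and 3.24 log2 CPM without Treg to 5.18 and 5.08 with Treg, and the left-out library stood at 4.17. The change was 1.50 ± 0.24 (SE, edgeR adjusted p = 0.00144) and held under all 14 alternatives, at 1.23 to 1.70. In HP1γ KO cells the peak went from 3.47, 4.26 and 3.69 to 4.41, 4.59 and 5.05, a change of 0.86 ± 0.20 (SE, edgeR adjusted p = 0.0159) that misses the fold. In WT cells of that line it went from 3.12, 3.47 and 3.21 to 3.59, 3.39 and 3.57, a change of 0.24 ± 0.20 (SE, edgeR adjusted p = 0.479).

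The Tnfrsf9 −10.46 kb peak rose in WT cells of the HP1α line from 2.87, 2.97 and 3.0 to 4.13 and 4.05, with the left-out library at 4.04, a change of 1.17 ± 0.25 (SE, edgeR adjusted p = 0.00769). Without the first WT library with Treg the adjusted p was 0.0609. The Tnfsf11 −22.33 kb peak went from 2.20, 2.59 and 2.41 to 3.11 and 4.68, with the left-out library at 2.32 inside the range without Treg. Its change was 1.58 ± 0.42 (SE, edgeR adjusted p = 0.0241), and it fell to 0.61 without the second WT library with Treg, with an edgeR adjusted p of 0.373. This call also ended without WT Tconv replicate 1, with all 18 libraries, with log2 depth as a covariate and with a constant dispersion, at adjusted p of 0.0832, 0.106, 0.195 and 0.0719. In HP1γ KO cells, the 2 called peaks were Tnfsf8 +26.12 kb, from −0.37, −0.55 and −1.09 to 0.95, 0.01 and 0.59 (1.25 ± 0.35, edgeR adjusted p = 0.038), and Tnfsf8 −40.50 kb, from −0.45, 1.56 and −0.08 to 2.67, 1.63 and 2.26 (1.69 ± 0.49, edgeR adjusted p = 0.0433). The latter is named after its values were seen. Without replicate 1 or 3 of either group, or in a fit of only these groups, 0 peaks were called in this comparison.

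Over the 20 Tnfsf8 peaks, the median log2 fold change with Treg was 0.57 in HP1α-line WT cells, with 14 peaks above 0, −0.03 in HP1α KO cells, with 9, 0.47 in HP1γ-line WT cells, with 20, and 0.68 in HP1γ KO cells, with 18. Over all peaks the median was 0.02, 0.01, 0.04 and −0.02. For the 18 Tnfsf11 peaks it was −0.23, −0.09, −0.09 and 0.15. The Tnfsf8 promoter changed by 0.40 ± 0.11 (SE, edgeR adjusted p = 0.0358) in HP1γ KO cells, short of the fold. Peaks of 1 gene share their libraries, and neighbours may share reads, so these counts describe the locus and are not 20 replicates.

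Whether the effect of Treg or of transfer depended on the genotype was tested by interaction. For HP1α and Treg edgeR called 0 of the 80 peaks (0.0% of all peaks), with 7 at an unadjusted p under 0.05 (8.98% of all), and DESeq2 called 2, both lower. These were Tnfrsf9 −10.46 kb (−1.41 ± 0.40, edgeR adjusted p = 0.344) and Tnfsf11 −22.33 kb (−2.57 ± 0.68, edgeR adjusted p = 0.324). For HP1γ and Treg edgeR called 0 (0.0%), with 12 at an unadjusted p under 0.05 (14.3% of all), and DESeq2 called 1, Tnfsf11 −43.79 kb (1.29 ± 0.36, edgeR adjusted p = 0.189). For HP1α and transfer, 0 were called (0.0%), with 1 at an unadjusted p under 0.05 (1.06% of all), and 0 by DESeq2. For HP1γ and transfer edgeR called 0 (0.0196%), with 21 at an unadjusted p under 0.05 (11.2% of all), and DESeq2 called 3, all lower. They were Tnfrsf1b −30.89 kb, Tnfsf11 −22.33 kb (−2.28 ± 0.68, edgeR adjusted p = 0.177) and Tnfsf11 −35.30 kb (−3.49 ± 0.95, edgeR adjusted p = 0.14). At Tnfsf11 −35.30 kb, HP1γ-line WT libraries went from −1.79, −3.60 and −2.41 log2 CPM in naive cells to 2.80, 2.97 and 1.37 in Tconv, and KO libraries from −0.95, 0.06 and −2.28 to 1.30, 0.97 and 0.13. The 3 KO Tconv libraries lay below the 3 WT Tconv libraries of that line, and the naive libraries of the 2 genotypes overlapped.

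The KO effects of the lines with Treg were also set against each other, HP1γ minus HP1α, in 1 fit of the 33 kept libraries. Of the 80 peaks 10 were called, 7 of them higher, where 14.0% of all peaks were called. With all 36 libraries 11 were called, 8 higher, where 12.6% of all peaks were, and 7 peaks were called in both fits. The lines differ in how the gene was deleted, and line and preparation cannot be told apart.

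**Figure D5:**
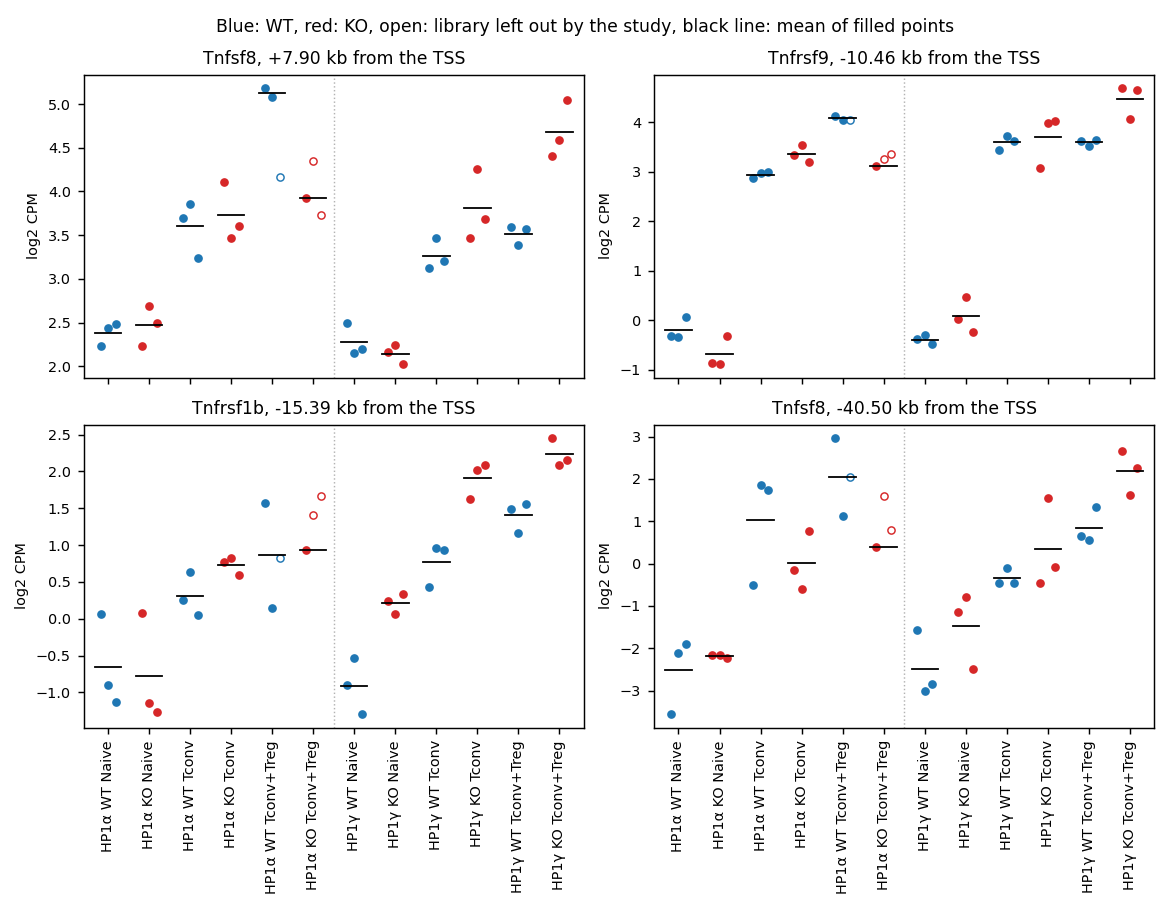
Accessibility (log2 CPM, y axis) of Tnfsf8 +7.90 kb, Tnfrsf9 −10.46 kb, Tnfrsf1b −15.39 kb and Tnfsf8 −40.50 kb, with 1 point per library, by group, with open points for libraries the study left out and a line for the mean of the others. At Tnfsf8 +7.90 kb the HP1γ KO libraries with Treg lie above the WT libraries with Treg of the HP1γ line.

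Other genes of the pathway were taken from 2 lists. The first held 22 further receptors and ligands with 146 peaks, not counting peaks assigned to the 7 genes. Of these, 42 higher and 18 lower were called on transfer in HP1α-line WT cells and 43 higher and 16 lower in HP1α KO cells. In the HP1γ line, 52 higher and 22 lower were called in WT cells and 43 higher and 20 lower in KO cells. Over all peaks, 39.1%, 39.5%, 47.1% and 42.3% were called in these comparisons, 25.6%, 23.2%, 25.2% and 22.4% higher. In HP1α-line WT cells 13 of the 22 genes had a higher peak and 8 a lower one. The genes of both lists named here were chosen after their values were seen. Tnfsf9, the ligand of 4-1BB, was higher in WT cells of the HP1α and HP1γ lines at 6 and 7 of its 9 peaks, Tnfsf14 (LIGHT) at 4 and 4 of its 5 peaks, Tnfsf10 (TRAIL) at 6 and 8 of its 10 peaks and Cd70, the ligand of CD27, at 3 and 3 of its 4 peaks. Tnfrsf8, the receptor of CD30 ligand, was higher at 6 and 7 of 13 peaks. Peaks of Tnfrsf8 that were assigned to Tnfrsf1b, −28.31 and −30.89 kb among them, are left out of these 13. Tnfrsf1a and Tnfrsf10b had no higher peak in either line and 3 of 8 and 2 of 3 lower ones in the HP1α line.

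The second list held 20 signalling genes with 205 peaks, of which 72 higher and 12 lower were called on transfer in HP1α-line WT cells and 68 higher and 18 lower in HP1γ-line WT cells, where 39.1% and 47.1% of all peaks were called, 25.6% and 25.2% higher. Nfkb1 was higher at 25 and 24 of its 40 peaks and Tnfaip3, the inhibitor A20, at 12 and 13 of its 36 peaks, while Traf1, an adaptor of these receptors, was higher at 2 and 4 of its 9 peaks. Between KO and WT the 2 lists had few calls in the HP1α line, with 1 higher and 0 lower for receptors and ligands with Treg (0.14% of all peaks). In the HP1γ line with Treg there were 8 higher and 10 lower for receptors and ligands, and 7 higher and 9 lower for signalling, where 10.7% of all peaks were called, 4.8% higher.

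Promoter peaks with the most similar pattern over the means of the 12 groups were sought among 11804 promoter peaks by Pearson's r, as a description, since these means share libraries and 1 step from naive cells to Tconv. The nearest to Tnfrsf4 were Tbx21 (r = 0.997) and Crmp1 (r = 0.996), to Tnfrsf9 Runx2 (r = 0.994) and Adap1 (r = 0.993), to Tnfrsf18 Ahnak (r = 0.980) and Ehbp1l1 (r = 0.972) and to Cd27 Arvcf (r = 0.978) and Efna4 (r = 0.972). For Tnfsf8 they were Grin1 (r = 0.973) and Spock2 (r = 0.962), for Tnfrsf1b Gbp3 (r = 0.955) and Akna (r = 0.953) and for Tnfsf11 Fgfbp3 (r = 0.907) and Slu7 (r = 0.879). Tnfrsf4 and Tnfrsf9 had an r of 0.990 with each other, and Tnfrsf4 and Cd27 one of −0.820.

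Motifs were counted on both strands in the central 300 bases of the 74 assigned peaks of that width or more. The AP-1 motif stood in 12 of them (16.2%), against 12.2% of 60436 such peaks, and the RUNX motif in 12 (16.2%), against 12.3%. Among the peaks higher in all 4 transfer comparisons, 8 of 33 (24.2%) held the AP-1 motif, against 22.9% of all peaks of that class. The TCF/LEF motif CTTTGAA stood in 3 (4.05%, against 7.85% of all), the ETS motif CCGGAAG in 2 (2.70%, against 4.71%) and the NF-κB motif in 2 (2.70%, against 8.23%). AP-1 matches were in 4 Tnfsf8 peaks, among them −44.83, −40.50 and +23.22 kb, and in 5 Tnfsf11 peaks between −76.47 and −35.30 kb. A match is a string of letters and not a bound site.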

How the data were processed

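ATAC-seq was done on 36 libraries of mouse CD4 T cells, 3 in each of 12 groups taken from the labels. Per the study's methods, reads were trimmed with Trim Galore 0.6.7, aligned with BWA-MEM, filtered on mapping quality and against a blacklist, and cleared of duplicates. Peaks were called per sample and merged. The deposited table holds raw read counts per merged peak, which the authors made with featureCounts 2.0.3, letting a read count for every peak it overlaps, so that neighbouring peaks may share reads. No column of per-sample values was left unused (0).

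From these counts, 3 peaks of no width were left out. Each mouse line was fitted separately over all its peaks with edgeR 4.0.16 (R 4.3.3, TMM, filterByExpr, quasi-likelihood F test, Benjamini-Hochberg), over the 15 HP1α-line libraries the study kept and the 18 HP1γ-line libraries. The quasi-likelihood form with a trended dispersion was used, as in earlier edgeR versions, and the newer form with a constant dispersion was an alternative added after the data were seen. Thresholds were an adjusted p of 0.05 and a log2 fold change of 1. Log2 CPM used a prior count of 2 and 1 set of TMM factors. Peaks were annotated with GENCODE M39 on GRCm39, the build that all contigs of the table fit, with 1-based coordinates. The fits were tested on simulated counts in which 200 peaks were changed by a log2 of 2, and the shares called are given above.

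The genes, the lists and the tests were chosen with earlier results of these data known. Named peaks were the promoter peaks and, per comparison and gene, the called peak with the smallest p. For likeness, the 2 promoter peaks of other genes with the highest r were named. Alternatives were DESeq2 1.42.0, other scalings, log2 depth as a covariate, no filter, only the groups compared, all 18 HP1α-line libraries, a replicate block, and leaving out each library in turn. Same-numbered libraries were taken to deviate together where r was over 0.1 in all 3 pairs. This held in HP1α KO against WT naive cells (r of 0.247 to 0.500) and in HP1γ KO against WT with Treg (0.147 to 0.323). It also held in HP1γ-line WT with against without Treg (0.202 to 0.286). In KO against WT Tconv of both lines and in HP1γ KO against WT naive cells, 2 of 3 pairs passed. The labels do not state a shared animal or day. B cell markers had no peak within 1 kb of a TSS, and 1 of 4 myeloid genes had one, at 6.58 to 14.8 CPM.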

Additional observations from a re-analysis of the deposited data

Results flagged for a closer look

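The KO effect with Treg differed between the lines at 10 of the 80 peaks (against 14.0% of all peaks) when HP1γ minus HP1α was tested over the 33 kept libraries. This is no larger a share than over all peaks, and the peaks are given as single values. With a higher value in the HP1γ line, these were Tnfsf8 +7.90 kb (2.34 ± 0.38 SE, edgeR adjusted p = 0.000392), Tnfrsf9 −10.46 kb (1.82 ± 0.40 SE, edgeR adjusted p = 0.00327) and Tnfsf8 −40.50 kb (3.49 ± 1.09 SE, edgeR adjusted p = 0.0287). Also higher, with the adjusted p second, were Tnfrsf9 +23.26 kb (2.31, 0.0192), Tnfsf11 −22.33 kb (2.69, 0.0195), Cd27 −23.19 kb (1.78, 0.0214) and Tnfrsf9 +10.03 kb (1.27, 0.0279). With a lower value in the HP1γ line they were Tnfsf8 −7.71 kb (−1.99 ± 0.49 SE, edgeR adjusted p = 0.00686), Tnfsf11 −76.47 kb (−1.59 ± 0.50 SE, edgeR adjusted p = 0.0304) and Tnfrsf1b −10.60 kb (−1.39 ± 0.47 SE, edgeR adjusted p = 0.0406).

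The Tnfsf8 +7.90 kb peak had the smallest adjusted p of the 10. Its KO effect was −1.21 ± 0.33 (SE, edgeR adjusted p = 0.0892) in the HP1α line, from 1 KO library, and 1.20 ± 0.20 (SE, edgeR adjusted p = 0.00159) in the HP1γ line. With all 36 libraries, 7 of the 10 were called again, at 2.04 for this peak and 1.74 for Tnfrsf9 −10.46 kb. Tnfsf11 −22.33 kb, Cd27 −23.19 kb and Tnfsf11 −76.47 kb were not.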

How the results depend on the processing

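No named peak reversed. Some medians near 0 changed sign, among them that of HP1γ KO minus WT in Tconv over the 38 peaks higher on transfer, from 0.09 to −0.01 with loess offsets, and that in naive cells over the 35 other peaks, from −0.02 to 0.05 with log2 depth. The direction and side of the threshold of the named peaks were kept in 639 repeats under an alternative and lost in 35. The counts of called peaks among the 80 moved by over 1.5 times in the cases given here, and the cause was not tested.

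For HP1α KO against WT with Treg (0), DESeq2 gave 2, a constant dispersion 2, loess offsets 1, and leaving out 1 library 0 to 3. For HP1α-line WT with against without Treg (3), DESeq2 gave 6, a constant dispersion 5, loess offsets 6, the replicate block 7 and leaving out 1 library 2 to 6. DESeq2 gave 2 for the interaction of HP1α and Treg, 1 for that of HP1γ and Treg and 3 for that of HP1γ and transfer, for which only the groups compared gave 1 and leaving out 1 library 0 to 4. For HP1γ KO against WT in naive cells (3), DESeq2 gave 5, a constant dispersion, log2 depth and peaks in the gene body or within 10 kb each 0, and leaving out 1 library 0 to 7. In Tconv (1), DESeq2, a constant dispersion and library size alone each gave 2, loess offsets 3, only the groups compared and peaks within 10 kb each 0, and leaving out 1 library 0 to 5. With Treg (1), DESeq2, a constant dispersion and only the groups compared each gave 2, loess offsets 4, log2 depth 4, the replicate block with log2 depth 3, and leaving out 1 library 1 to 3. For HP1γ-line WT with against without Treg (0), library size alone gave 1 and leaving out 1 library 0 to 1. For HP1γ KO cells (2), library size alone, loess offsets and peaks within 10 kb each gave 1, only the groups compared 0, and leaving out 1 library 0 to 2. For transfer, peaks in the gene body or within 10 kb gave 20, 18, 24 and 22 in HP1α-line WT, HP1α KO, HP1γ-line WT and HP1γ KO cells. These counts come from only part of the assigned peaks and so are lower by construction. Their share was not set against all peaks so placed. Leaving out 1 library gave 44 to 56 over the 4.

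The replicate block left the count at 0 in HP1α KO against WT naive cells, 1 in HP1γ KO against WT with Treg and 0 in HP1γ-line WT with against without Treg, where same-numbered libraries deviated together. In HP1γ naive cells, where 2 of 3 pairs did so (r of −0.069 to 0.265 over the 3), it gave 2. The HP1α KO library with Treg is alone in its group and could not be left out. For the KO effect with Treg in the HP1α line, low depth in WT libraries and the single KO library cannot be told apart as limits.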
